A study of Arabidopsis thaliana with 8 samples.

Results

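Flowering time in Arabidopsis thaliana is set by a network of regulators, and 50 of its genes were examined here out of 27444 nuclear protein-coding genes of the TAIR10 annotation. They were chosen by name for their known part in flowering and fall into 8 groups by role. The rule uses no measured value, but the genes were named with earlier results of these data known. Day length acts through CO, which switches on FT, the mobile signal that moves from leaf to shoot tip and there activates SOC1, LFY and AP1. FLC and related MADS box repressors hold this switch off. Chromatin and RNA factors keep FLC active, autonomous pathway genes keep it low, and vernalization silences it through Polycomb proteins. FLC is a classic case in which the chromatin state of a flowering gene is kept through cell divisions, and methylation of CG sites inside the transcribed part is common in Arabidopsis genes.

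The data were 6 lists of differentially methylated cytosines (DMCs), each from bisulfite sequencing of a selected pool set against the unselected pool of its own line. The selected plants came from populations of the recombinant inbred lines CVL39 and CVL125, both derived from a cross of the accessions Ler and Cvi, after 5 generations of selection in landscapes 1, 5 and 6 and 2 further generations without selection. The ancestral plants of each line had not been selected. Every pool combined DNA of the above-ground tissue of 4 plants aged 25 days, grown in long days, so there were 3 selected pools and 1 ancestral pool per line. All 3 lists of a line share that ancestral pool, and a difference between the lines cannot be told apart from a difference between their ancestral pools. The lists held between 7297 and 14074 nuclear DMCs, the lowest number in CVL125 landscape 6. They give a position and the authors' unadjusted p-value, at most 0.05, but no methylation level, no direction of change and no read depth. A gene with no DMC is therefore a gene in which none was listed, which sets no limit on how far its methylation differed.

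Within these genes, 64 distinct cytosines were listed in at least 1 of the 6 lists, in 25 of the 50 genes, and the other 25 genes had none. A selection of the stretches that hold a recurring cytosine is shown first: those where the lines had cytosines close together (VRN1, CO, ELF7), those with the lowest deposited p-values (CLF, VRN2, VIP4) and the CHH sites of FLC and REF6. Each stretch is written 5' to 3' from the TAIR10 reference sequence, on the strand of the gene for CG sites and on the strand of the cytosine for CHH sites (H being A, C or T). Capitals mark the CG or CHH of each listed cytosine, and the parental alleles were not used.
VRN1 coding exon, chr3:6549510-6549577, minus strand: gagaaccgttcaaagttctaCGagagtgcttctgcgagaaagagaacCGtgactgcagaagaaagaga
CO coding exon, chr5:5172469-5172529, minus strand: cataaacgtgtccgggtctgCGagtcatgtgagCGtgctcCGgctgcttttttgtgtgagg
ELF7 coding exon, chr1:30000778-30000847, minus strand: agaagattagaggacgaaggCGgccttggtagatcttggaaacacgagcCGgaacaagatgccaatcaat
CLF coding exon, chr2:9957830-9957870, plus strand: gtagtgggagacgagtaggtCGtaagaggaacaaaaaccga
VRN2 exon and intron edge, chr4:9478915-9478955, plus strand: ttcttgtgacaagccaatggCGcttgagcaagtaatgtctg
VIP4 intron and exon edge, chr5:24605317-24605395, minus strand: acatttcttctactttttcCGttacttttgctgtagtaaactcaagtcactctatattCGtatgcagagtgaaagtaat
FLC intron, chr5:3175128-3175168, minus strand: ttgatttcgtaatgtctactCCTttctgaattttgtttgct
REF6 coding exon, chr3:17940023-17940063, minus strand: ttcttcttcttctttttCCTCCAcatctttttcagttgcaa
In VRN1, reading from the left, the CG of all 3 CVL125 lists comes before the CG of CVL39 landscapes 5 and 6. In CO the CG on the left was listed in CVL125 landscapes 1 and 5 and the other 2 in CVL39 landscape 6. In ELF7 the CG on the left was listed in CVL39 landscape 6 and that on the right in CVL125 landscapes 1 and 5. In REF6 the capitals cover adjoining CHH sites, that on the left listed in CVL125 landscape 1 and that on the right in CVL125 landscapes 5 and 6.

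Each list placed a DMC in the body of between 7 and 14 of the 50 genes. In CVL39 these were 8, 14 and 9 genes for landscapes 1, 5 and 6, and in CVL125 they were 9, 14 and 7 genes in the same order. As shares, 16%, 28% and 18% of the flowering time genes had a DMC in CVL39, against 13%, 14.9% and 15.1% of all protein-coding genes. The shares were 18%, 28% and 14% of the flowering time genes in CVL125, against 14.3%, 17% and 8.17% of all protein-coding genes. The flowering time genes are long, with a median of 3731 bp against 2077 bp in the other protein-coding genes, and a long gene offers more sites. Other genes were therefore also taken in 10 classes of length weighted as the flowering time genes. On that scale the other genes had 22.2%, 25.1% and 25.4% with a DMC in the CVL39 lists and 23.9%, 28.7% and 13.8% in the CVL125 lists.

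**Figure D1:**
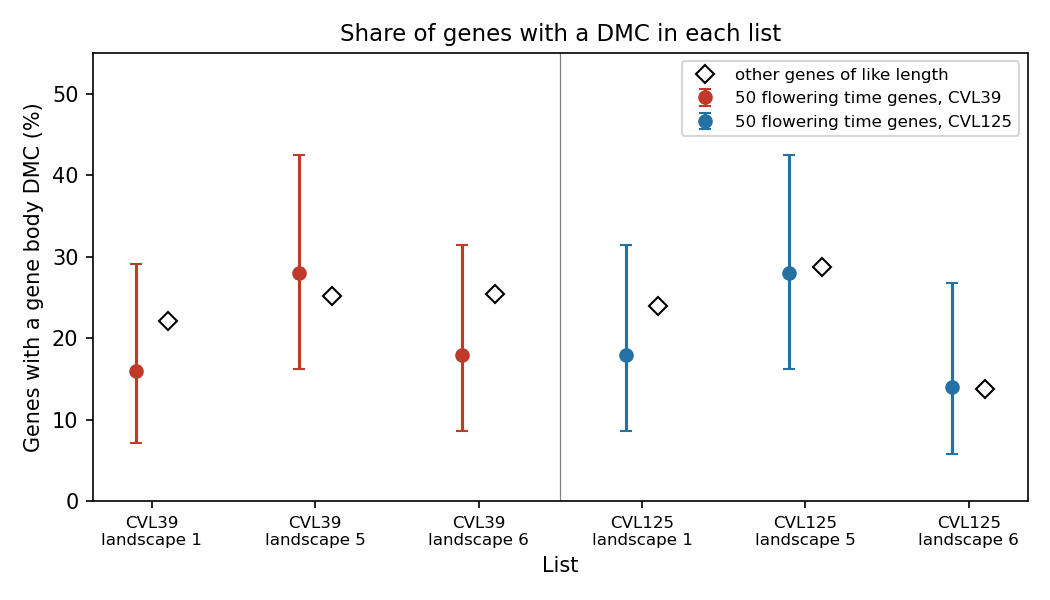
Share of genes (%) with at least 1 DMC in the gene body, for each list. Filled circles are the 50 flowering time genes with exact (Clopper-Pearson) 95% intervals, which cover counting error only, and open diamonds are other protein-coding genes of like length. The share of the flowering time genes lay below that of genes of like length in 4 lists and above it in CVL39 landscape 5 (28% against 25.1%) and CVL125 landscape 6 (14% against 13.8%). The intervals take the genes as independent and are no test against other genes, since the genes were named with earlier results known.

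Over the landscapes together, 19 flowering time genes had a DMC in CVL39 (38%, exact 95% interval 24.7% to 52.8%), against 42.0% of other genes of like length and 26.2% of all genes. In CVL125 there were 16 such genes (32%, interval 19.5% to 46.7%), against 40.6% of genes of like length and 25% of all genes. Both intervals take the genes as independent and are no test against other genes. A DMC in any of the 6 lists was found in 50% of the flowering time genes, against 57.9% of genes of like length and 37.6% of all genes. Both lines had a DMC in 10 of the genes, where the share of genes of like length amounts to 12.4 and that of all genes is 13.5%. On each of these counts the flowering time genes exceeded the share of all genes but not that of genes of their length. They are poorer in CG than other genes, with 42.7 against 51.1 CG cytosines per kb, and with other genes taken by their number of CG cytosines in place of length the comparison was close to even. The share of such genes amounts to 17.8 genes in CVL39 (19 observed), 17.4 in CVL125 (16 observed), 25.0 in any list (25 observed) and 10.2 in both lines (10 observed).

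The counts of the lines overlapped. The number of flowering time genes with a DMC averaged 10.3 ± 3.21 in CVL39 populations and 10 ± 3.61 in CVL125 populations (SD over 3 of each), a difference of 0.333 (exact permutation test, two-sided, p = 1, adjusted p = 1 over 3 comparisons). The number of DMCs in their bodies was 10, 15 and 11 in CVL39 landscapes 1, 5 and 6, against 15, 25 and 8 in those of CVL125. These ranges overlap, with means of 12.0 ± 2.65 in CVL39 and 16.0 ± 8.54 in CVL125 (difference -4, exact permutation p = 0.7, adjusted p = 1). With 3 populations per line the smallest p this test can give is 0.1. In both lines landscape 5 had the highest count, and landscape 5 was also the longest list of CVL125 but not of CVL39.

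**Figure D2:**
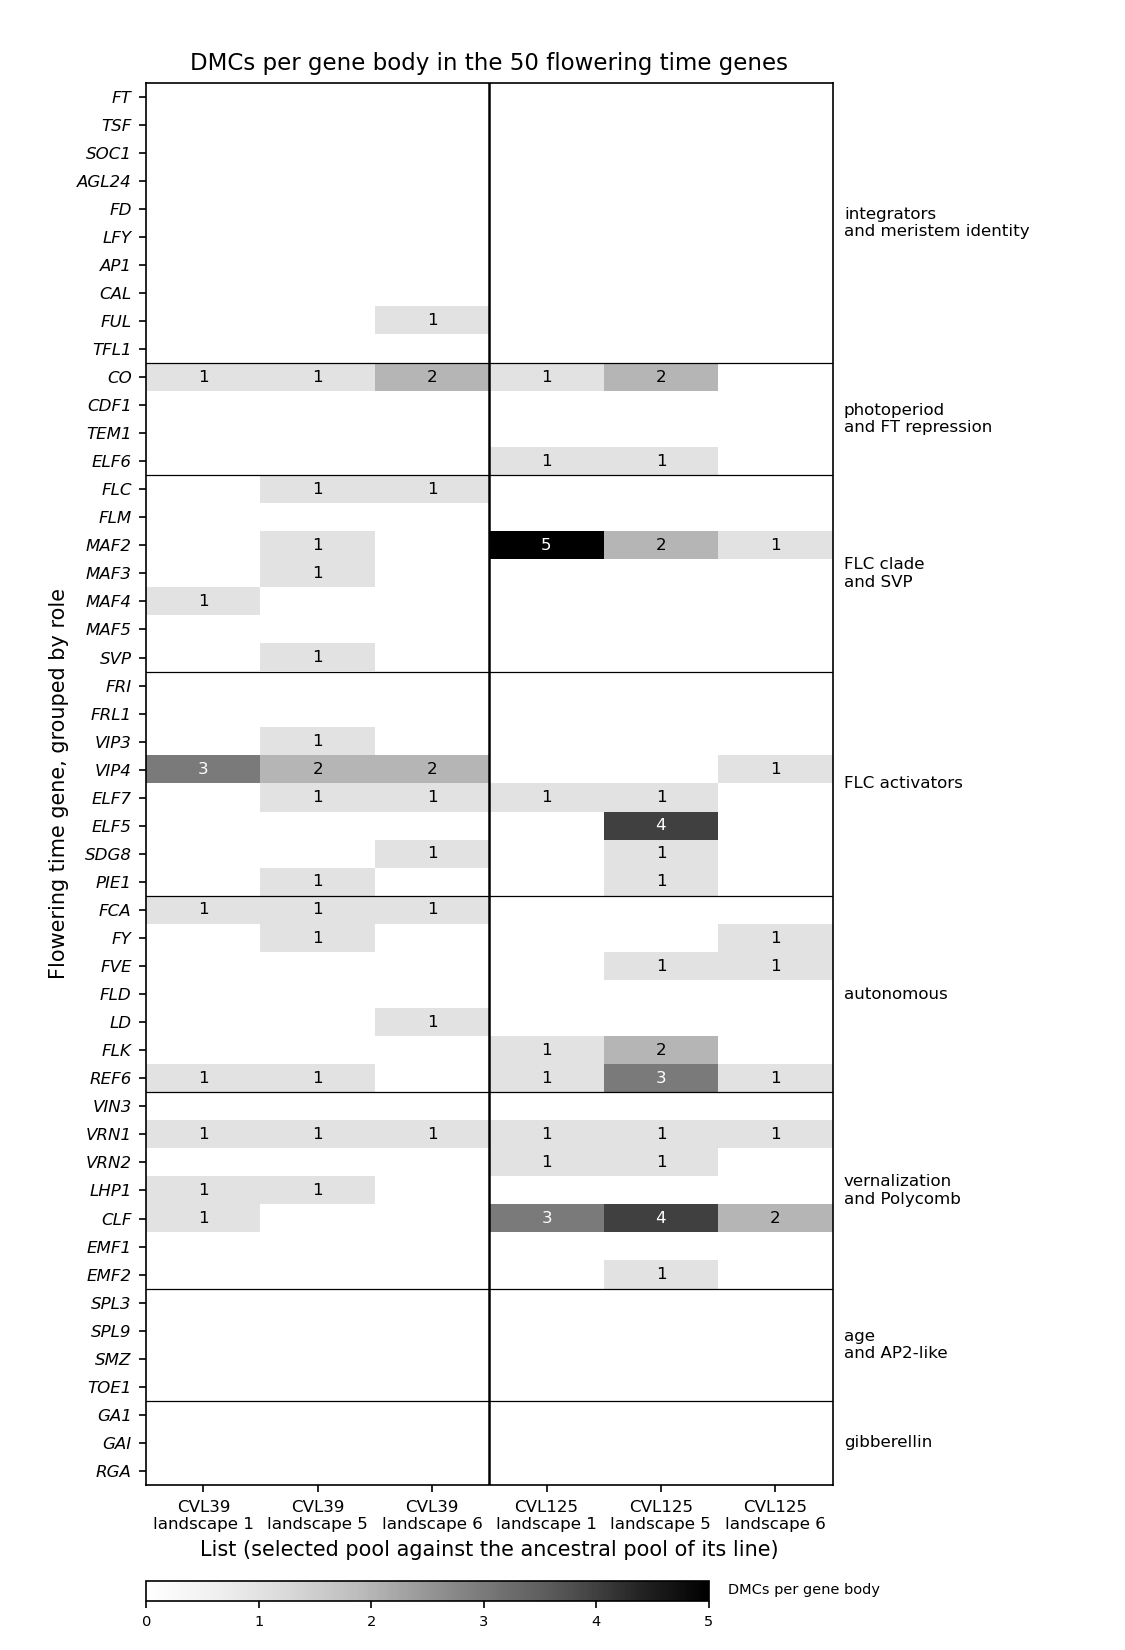
Number of DMCs in the body of each of the 50 flowering time genes (down the page, grouped by role) in each of the 6 lists (across), with darker squares for more DMCs and blank squares for 0. VRN1 is filled in all 6 lists, CLF and MAF2 are darkest in CVL125, VIP4 is darkest in CVL39, and the integrator, age and gibberellin groups are blank but for FUL.

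The integrators and meristem identity genes, where the pathways converge, were nearly free of listed cytosines. FT (AT1G65480, florigen), its paralog TSF (AT4G20370), its partner FD (AT4G35900), the MADS box activators SOC1 (AT2G45660) and AGL24 (AT4G24540), the meristem identity genes LFY (AT5G61850), AP1 (AT1G69120) and CAL (AT1G26310) and the repressor TFL1 (AT5G03840) had 0 DMCs in every list. FUL (AT5G60910), a MADS box gene active in the inflorescence meristem, had 1 DMC, at a CHH site of its 5' untranslated region in CVL39 landscape 6 (deposited p-value 0.00794). So 1 of 10 genes of this group had a DMC, where the share of genes of like length amounts to 4.89 genes. These genes are poor in CG, with 35.5 CG cytosines per kb against 51.1 per kb in other protein-coding genes of any length. When genes with a like number of CG cytosines are used the number is 3.41. The FLC clade and SVP were as poor in CG, with 34.6 per kb, and 5 of those 7 genes had a DMC. Whether CG content had a part in the low count of the integrators was not tested. The nearest listed cytosine lay 4599 bp from FT, 4387 bp from SOC1, 4418 bp from LFY and 6632 bp from TFL1, counted from the nearer end of the gene. It was nearer to AP1 (433 bp), TSF (2295 bp), AGL24 (2383 bp), CAL (2567 bp) and FD (4113 bp). Such distances were not set beside those of other genes without a DMC, so they do not show whether these gaps are wide.

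Among the photoperiod genes and repressors of FT, CO and ELF6 had DMCs, and CDF1 (AT5G62430), a repressor of CO, and TEM1 (AT1G25560), a repressor of FT, had 0 in every list. The 2 of 4 genes compare with 1.85 at the share of like length and 2.01 at that of like CG number. CO (AT5G15840, chr5:5170162-5173085) is the zinc finger protein that reads long days. It had 1, 1 and 2 DMCs in CVL39 landscapes 1, 5 and 6, against 1, 2 and 0 in CVL125. All 6 distinct cytosines of CO were CG sites. Of these, 3 lie within 20 bp of one another in a coding exon, at positions 5172489 and 5172496 of chromosome 5 in CVL39 landscape 6 (deposited p-values 0.0007 and 0.011) and at 5172509 in CVL125 landscapes 1 and 5 (deposited p-values 0.0101 and 0.0256). The nearest pair of CVL39 and CVL125 cytosines in CO is 13 bp apart. The other 3 lie where CO overlaps the annotated gene AT5G15843 and cannot be assigned to one of the genes. ELF6 (AT5G04240), a histone demethylase of the Jumonji class, had 1 DMC in each of CVL125 landscapes 1 and 5, at the same coding CG (1171573 of chromosome 5, deposited p-values 0.00794 and 0.00476), and 0 in the other lists.

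In FLC (AT5G10140, chr5:3173382-3179448), the MADS box repressor that vernalization silences, 1 cytosine was listed, and it was not a CG. This intronic CHH at 3175148 of chromosome 5 lies 70.9% of the way along the gene and appeared in CVL39 landscapes 5 and 6 (deposited p-values 0.0476 and 0.0333), with 0 DMCs in CVL39 landscape 1 and in the 3 CVL125 lists. None of the 206 CG cytosines of FLC was listed. The relatives of FLC had DMCs in MAF2 (AT5G65050), MAF3 (AT5G65060) and MAF4 (AT5G65070) and none in FLM (AT1G77080) or MAF5 (AT5G65080). SVP (AT2G22540), a MADS box partner of FLC, had 1 DMC, a CHH site of the 5' untranslated region in CVL39 landscape 5.

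MAF2 stood out by its counts, with 0, 1 and 0 DMCs in CVL39 landscapes 1, 5 and 6, against 5, 2 and 1 in CVL125. All 7 of its distinct cytosines were CHH sites between 44 and 64 bp from the start of the gene, inside a run of at least 4 CT dinucleotides in the 5' untranslated region. Position 25982308 of chromosome 5 was listed in CVL39 landscape 5 and in CVL125 landscape 1 and was the only gene body cytosine of the 50 genes listed in both lines. The DMC of SVP also lay in such a run, and these 8 were the only CT run positions in the 50 genes. MAF2 to MAF5 are tandem copies of one another, and reads of such copies can be placed wrongly. Whether repeats or copies had a part in these calls was not tested. In MAF3 and MAF4 the DMC was a CG, in CVL39 landscape 5 for MAF3 and landscape 1 for MAF4. By counts, 5 of 7 genes of the FLC clade and SVP had a DMC (4.94 at the share of like length, 3.60 at that of like CG number). In CVL39 there were 5 such genes (3.71 at the share of like length) and in CVL125 there was 1 (3.59).

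Among the activators of FLC, 6 of 8 genes had a DMC (4.27 at the share of like length, 4.24 at that of like CG number). FRI (AT4G00650), the scaffold protein that raises FLC in winter annuals, had 0 in every list, with the nearest listed cytosine at 2323 bp, and its relative FRL1 (AT5G16320) had 0 in its body. VIP4 (AT5G61150, chr5:24603634-24607725) encodes a subunit of the Paf1 complex, which accompanies transcribing RNA polymerase, and had 3, 2 and 2 DMCs in CVL39 landscapes 1, 5 and 6, against 0, 0 and 1 in CVL125. All CVL39 counts were above all CVL125 counts, as in 1.7% of all genes. The difference was 2 DMCs (means 2.33 ± 0.577 in CVL39 populations and 0.333 ± 0.577 in CVL125 populations, SD over 3 of each, exact permutation p = 0.1, adjusted p = 1 over all genes). Any gene picked for such a separation has this p, so the test adds nothing to the counts. An intronic CG at 24605375 of chromosome 5 appeared in CVL39 landscapes 1 and 5 (deposited p-values 0.000125 and 0.000999), and another 38 bp away at 24605337 in landscapes 5 and 6 (deposited p-values 0.0476 and 0.00794). Thus each CVL39 population had at least 1 of the pair, and no CVL125 population had either. The 2 CVL39 cytosines in exons, at 24606536 in landscape 1 and 24606560 in landscape 6, are 24 bp apart.

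ELF7 (AT1G79730), a further Paf1 subunit, had 0, 1 and 1 DMCs in CVL39 landscapes 1, 5 and 6, against 1, 1 and 0 in CVL125. The coding CG at 30000798 of chromosome 1 was listed in CVL125 landscapes 1 and 5 (deposited p-values 0.00303 and 0.00126), and 29 bp away the CG at 30000827 was listed in CVL39 landscape 6 (deposited p-value 0.00135). VIP3 (AT4G29830), which also belongs to the Paf1 complex, had 1 coding CG in CVL39 landscape 5. ELF5 (AT5G62640), a nuclear protein needed for high FLC, had 4 DMCs in CVL125 landscape 5 and 0 in each of the other 5 lists. These 4 included both cytosines of 1 CG site, 25149737 and 25149738 of chromosome 5 (deposited p-values 0.0014 and 0.00476), the only site in the 50 genes with both strands listed. SDG8 (AT1G77300), a histone H3 lysine methyltransferase, had 1 DMC in CVL39 landscape 6 and 1 in CVL125 landscape 5, which are 749 bp apart. PIE1 (AT3G12810), the ATPase of the SWR1 chromatin remodeller, had 1 in CVL39 landscape 5 and 1 in CVL125 landscape 5, which are 2891 bp apart.

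In the autonomous pathway, which lowers FLC, 6 of 7 genes had a DMC (5.10 at the share of like length, 4.26 at that of like CG number). FLD (AT3G10390), a histone demethylase, had none in its body. FCA (AT4G16280), an RNA-binding protein that acts on FLC antisense transcripts, had 1 DMC in each CVL39 list and 0 in each CVL125 list. The coding CG at 9208952 of chromosome 4 was listed in CVL39 landscapes 1 and 6 (deposited p-values 0.0337 and 0.0128), and another CG 145 bp away in landscape 5. FLK (AT3G04610), an RNA-binding protein of the KH class, had 0 DMCs in CVL39 and 1, 2 and 0 in CVL125 landscapes 1, 5 and 6. Its coding CG at 1250848 of chromosome 3 was in CVL125 landscapes 1 and 5 (deposited p-values 0.00466 and 0.000583). FY (AT5G13480), the polyadenylation factor that binds FCA, had 1 coding CG in CVL39 landscape 5 and 1 in CVL125 landscape 6, 507 bp apart. LD (AT4G02560), a homeodomain protein, had 1 in CVL39 landscape 6. FVE (AT2G19520), a histone-binding WD repeat protein, had the same CG of its 3' untranslated region in CVL125 landscapes 5 and 6 (deposited p-values 0.0286 and 0.0476) and 0 in the other lists.

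REF6 (AT3G48430, chr3:17935256-17940792), which removes methyl groups from histone H3 lysine residues at Polycomb targets, had 1, 1 and 0 DMCs in CVL39 landscapes 1, 5 and 6, against 1, 3 and 1 in CVL125. Its counts overlap between the lines, but the cytosines do not. CVL39 landscapes 1 and 5 shared the coding CG at 17938706 of chromosome 3 (deposited p-values 0.00466 and 0.0455). CVL125 landscapes 5 and 6 shared a coding CHH at 17940043 (deposited p-values 0.0118 and 0.0309), and landscape 1 had another CHH 3 bp away (deposited p-value 0.0355). These were the only coding CHH sites listed in the 50 genes, and the stretch printed above is rich in C and T on that strand, as is the MAF2 run. The CG cytosines of REF6 nearest to each other in the 2 lines were 87 bp apart.

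The vernalization and Polycomb genes had DMCs in 5 of 7 genes (4.56 at the share of like length, 3.85 at that of like CG number) and held the cytosines that recurred most. VRN1 (AT3G18990, chr3:6548127-6552055), a B3 domain protein that keeps FLC silent after cold, was the only one of the 50 genes with a DMC in all 6 lists, with 1 in each. Outside the 50 genes, the related pathway genes FPA and FIE also had a DMC in all 6 lists. The share of all genes with a DMC in every list was not counted. CVL125 landscapes 1, 5 and 6 all listed the coding CG at 6549557 of chromosome 3 (deposited p-values 0.0278, 0.0128 and 0.0105). In CVL39 the CG 27 bp away, at 6549530, was listed in landscapes 5 and 6 (deposited p-values 0.0455 and 0.0101), and landscape 1 had a CG at 6549281 (deposited p-value 0.0152). All 3 are on the minus strand, the coding strand of VRN1. No VRN1 cytosine was shared by the lines.

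CLF (AT2G23380, chr2:9955092-9960386), the histone methyltransferase of Polycomb repressive complex 2, had 1, 0 and 0 DMCs in CVL39 landscapes 1, 5 and 6, against 3, 4 and 2 in CVL125. All CVL125 counts were above all CVL39 counts, as in 1.22% of all genes (means 0.333 ± 0.577 in CVL39 populations and 3 ± 1 in CVL125 populations, SD over 3 of each, difference -2.67, exact permutation p = 0.1, adjusted p = 1 over all genes). As for VIP4, the separation by which the gene was picked fixes this p. The coding CG at 9957850 of chromosome 2 was in all 3 CVL125 lists and had the lowest p-value of any gene body cytosine in the 50 genes (2.01e-05, 0.000714 and 0.0014 in landscapes 1, 5 and 6). Another coding CG, at 9958139, was in CVL125 landscapes 1 and 5 (deposited p-values 0.00466 and 0.0152). The other 4 CVL125 cytosines, each in 1 list, lie between 3576 and 3749 bp from the start of CLF, and all 6 are on the plus strand. The CVL39 cytosine is in an intron 1068 bp from the nearest of them.

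Of the partners of CLF, VRN2 (AT4G16845) and EMF2 (AT5G51230), which are Su(z)12-like subunits of the same complex, had 0 DMCs in the CVL39 lists. In CVL125, VRN2 had 1 in landscape 1 and 1 in landscape 5, at the same CG (9478935 of chromosome 4, deposited p-value 5.14e-05 in both), in a coding exon just after the end of an intron. EMF2 had 1 intronic CG in landscape 5. LHP1 (AT5G17690), which binds the histone mark that CLF places, had 1 coding CG in CVL39 landscape 1 and another 42 bp away in landscape 5, and 0 in CVL125. VIN3 (AT5G57380), the cold-induced PHD finger protein, and EMF1 (AT5G11530), also of the Polycomb system, had 0 in every list.

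**Figure D3:**
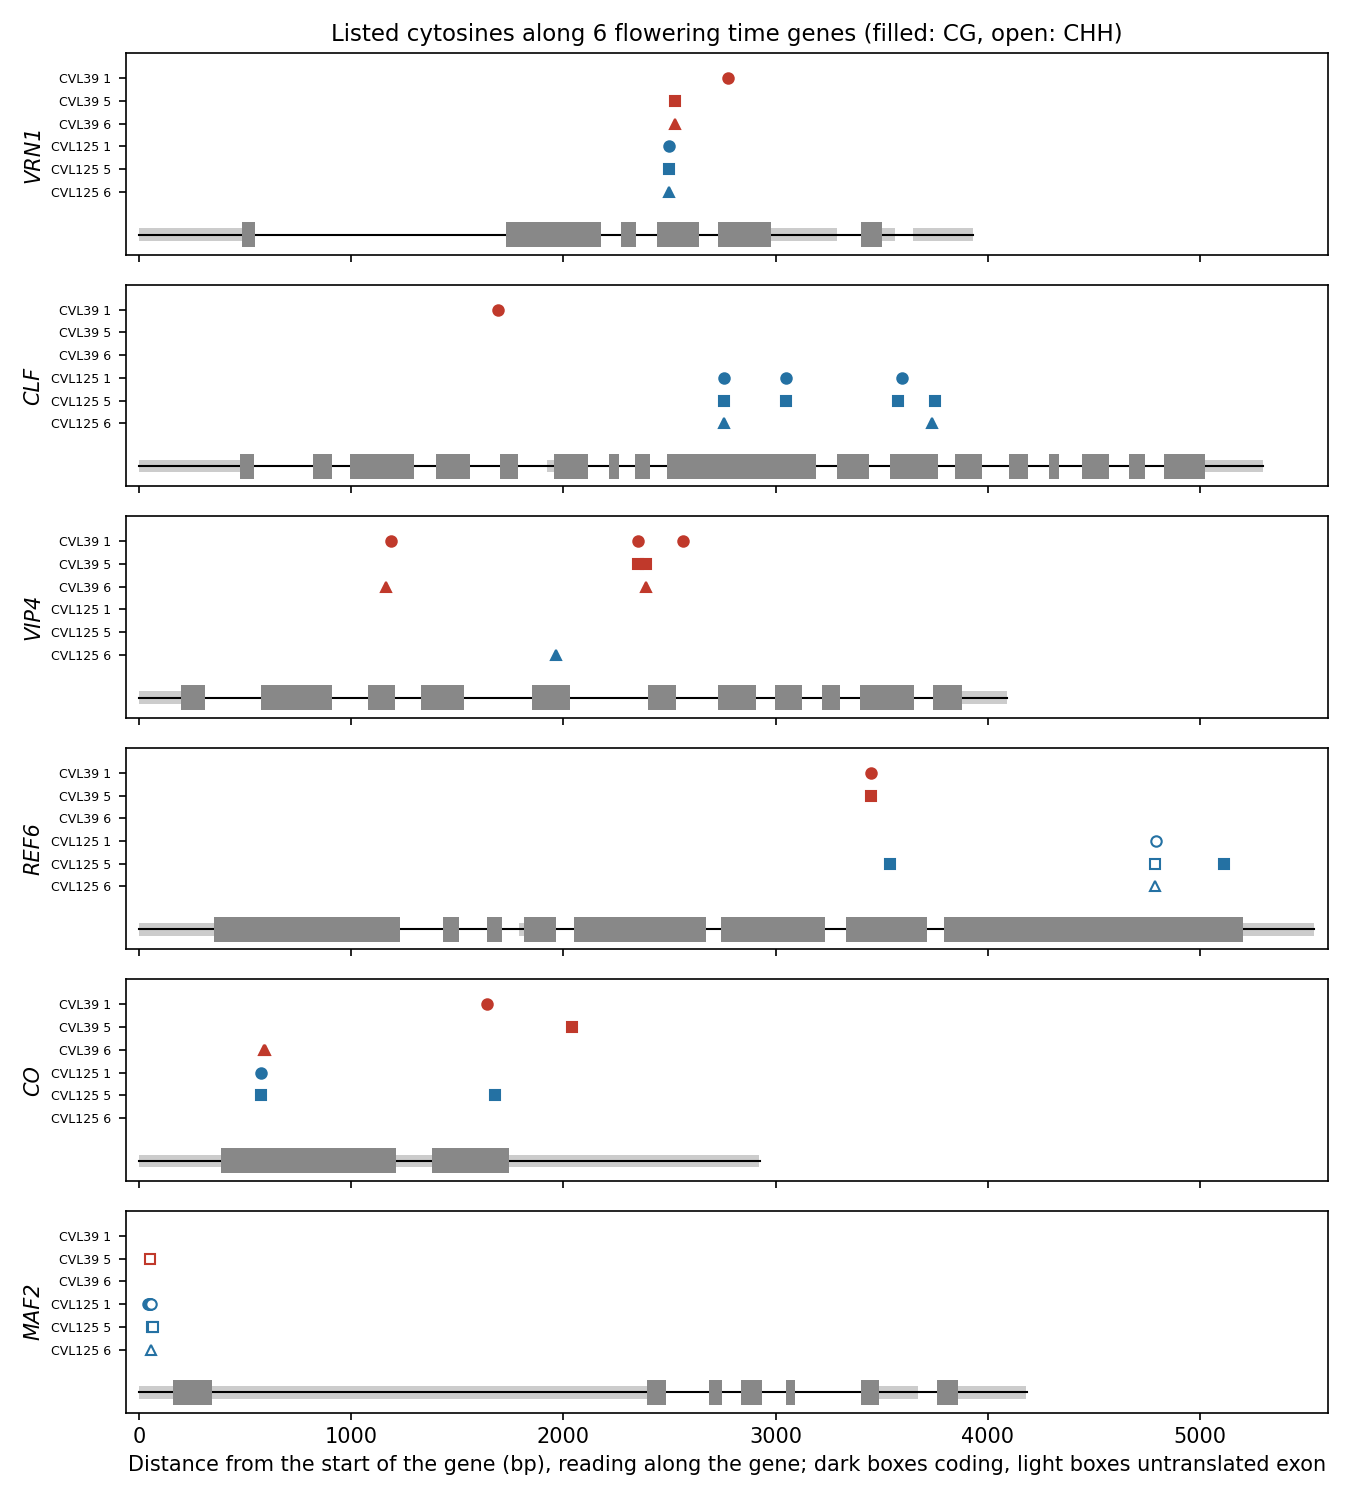
Listed cytosines along VRN1, CLF, VIP4, REF6, CO and MAF2, with distance from the start of the gene in bp on the horizontal axis and 1 row for each list (CVL39 above CVL125, landscapes 1, 5 and 6 in each). Red symbols are CVL39 and blue symbols CVL125, filled for CG and open for CHH (open circles of MAF2 overlap), above a gene model with coding and untranslated exons. Columns of symbols show recurring cytosines, such as that of CLF in all 3 CVL125 lists and that of VRN1 27 bp from the CVL39 cytosine.

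No DMC was listed in the body of any age or gibberellin gene. SPL3 (AT2G33810) and SPL9 (AT2G42200), which promote flowering with age, and the AP2-like repressors SMZ (AT3G54990) and TOE1 (AT2G28550) had 0 in every list, where the share of genes of like length amounts to 1.69 of 4 genes and that of like CG number to 1.55. GA1 (AT4G02780), an enzyme of gibberellin synthesis, and the DELLA repressors GAI (AT1G14920) and RGA (AT2G01570) also had 0, where that share amounts to 1.62 of 3 genes and, among genes with a like number of CG cytosines, to 2.04. The gibberellin genes carry 68.0 CG cytosines per kb, more than any other of the 8 groups. In the age and gibberellin groups the nearest listed cytosine lay between 885 bp (RGA) and 6877 bp (GAI) from the gene. It was 8286 bp from TEM1 of the photoperiod group. Here too no distances of other genes stand beside these values. These groups are small, and no test was made of a difference between roles.

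**Figure D4:**
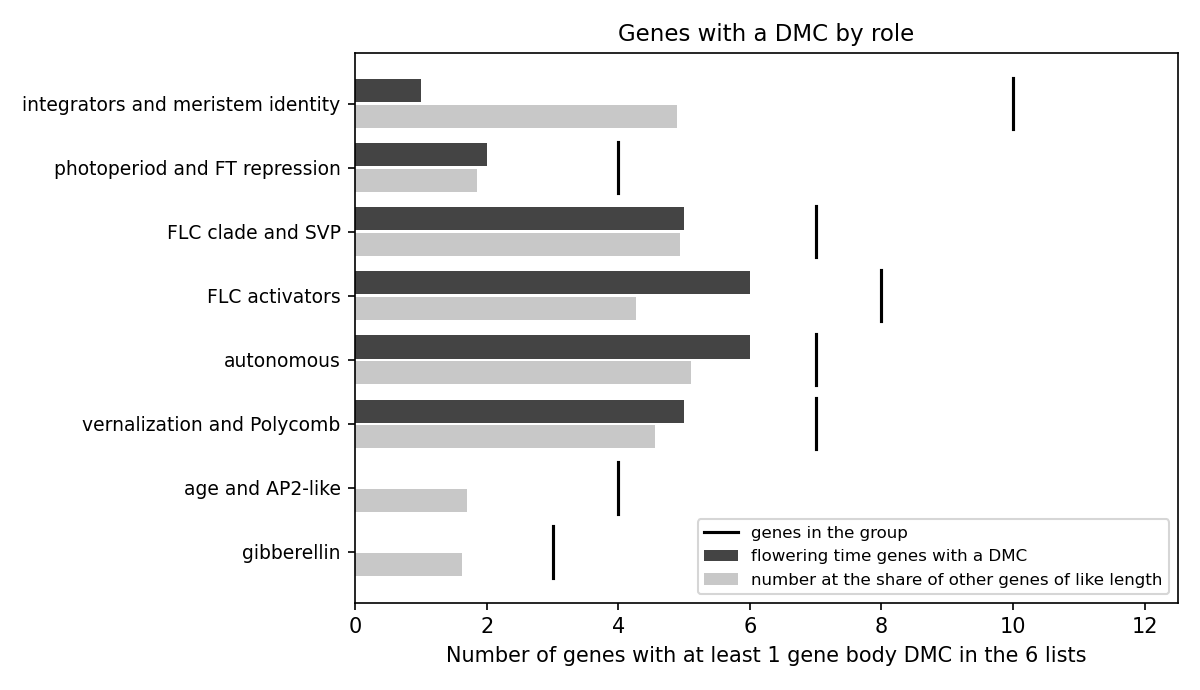
Number of flowering time genes with at least 1 gene body DMC in the 6 lists (dark bars) by role, beside the number that the share of other genes of like length gives (light bars), with the size of each group as a vertical line. The dark bar is 1 against 4.89 for the integrators and 0 for the age and gibberellin groups, and exceeds the light bar most in the FLC activators (6 against 4.27).

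Across the 50 genes, DMCs of the body were mostly in CG. In the CVL39 lists 10, 12 and 9 were CG, 0 were CHG and 0, 3 and 2 were CHH, and in the CVL125 lists 9, 22 and 6 were CG, 0 were CHG and 6, 3 and 2 were CHH. Of the 64 distinct cytosines 81.3% were CG, against 73.9% in other protein-coding genes, where 7.01% were CHG and 19.1% CHH. A CHG or CHH DMC was found in 4 flowering time genes in CVL39 (8%, against 9.50% of genes of like length and 6.85% of all genes) and in 2 in CVL125 (4%, against 8.10% of genes of like length and 6.05% of all genes), and 8 of the 12 CHH sites were in the CT runs of MAF2 and SVP. Counted per 1000 CG cytosines of the gene bodies, CG DMCs numbered 1.22 ± 0.181 in the flowering time genes and 1.64 ± 0.148 in genes of like length in CVL39 (SD, n = 3). In CVL125 they numbered 1.46 ± 1.01 in the flowering time genes and 1.503 ± 0.682 in genes of like length. The ratio of the flowering time genes to the others was 0.748 ± 0.112 in CVL39 and 0.938 ± 0.294 in CVL125 (CVL39 against CVL125, exact permutation p = 0.4, not adjusted). The flowering time genes were not tested against the others.

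The CG cytosines of these genes lay mainly in coding exons and beyond the middle of the gene. Of 52 distinct CG cytosines, 78.8% were in coding exons, against 88.7% in other protein-coding genes, and 13.5% were in introns, against 7.48%. Beyond the middle of the gene, reading along its strand, were 80.8% of them, against 68.7% in other genes, with the median at 65.9% of the gene length in the flowering time genes and 63.9% in other genes. Cytosines of the same gene are not independent, so these shares are given without a test. CHH cytosines lay elsewhere, 9 of 12 of them in 5' untranslated regions.

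Recurrence was next counted by gene. A cytosine listed in at least 2 landscapes was found in 5 flowering time genes (10%) in CVL39, FLC, VIP4, FCA, REF6 and VRN1. Genes of like length would give 7.14 at their share, and 8.11% of all genes had such a cytosine. In CVL125 there were 10 (20%), CO, ELF6, MAF2, ELF7, FLK, FVE, REF6, VRN1, VRN2 and CLF. Genes of like length would give 6.45 (12.9%), and 7.58% of all genes had one. VRN1 and REF6 are in both sets. Since 1 ancestral pool stands behind the 3 lists, recurrence in a line does not count independent changes. At the level of the gene, body counts of CVL39 were all above those of CVL125 in VIP4 and FCA, as in 1.7% of all genes, and the reverse held for CLF, as in 1.22% of all genes.

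Of the 10 genes with DMCs in both lines, only MAF2 had them at the same base. By distinct body cytosines, 1 of 64 was listed in both lines, beside 2 of 59 in the further pathway genes described below. Neither this share nor the distances that follow were counted over all genes. The nearest CVL39 and CVL125 cytosines were the same base in MAF2, 13 bp apart in CO, 27 bp in VRN1, 29 bp in ELF7 and 87 bp in REF6. They were 385 bp apart in VIP4, 507 bp in FY, 749 bp in SDG8, 1068 bp in CLF and 2891 bp in PIE1.

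Within 1 kb of the genes few DMCs were listed. There were 1, 2 and 3 in CVL39 landscapes 1, 5 and 6, against 3, 2 and 1 in CVL125 (2 ± 1 in each line, SD, n = 3, difference 0, exact permutation p = 1, adjusted p = 1). A DMC within 1 kb was found for 4 genes in CVL39 (8%, against 15.1% of genes of like length and 15.3% of all genes) and for 5 in CVL125 (10%, against 13.8% of genes of like length and 13.7% of all genes). LHP1 had 1 in each CVL39 list and 0 in CVL125, at 3 cytosines downstream that lie in the neighbouring gene AT5G17680. FRL1 had the only recurring one, a downstream CG at 5346220 of chromosome 5 in CVL125 landscapes 1 and 5 (deposited p-values 0.0333 and 0.0278), inside AT5G16330. The others were single DMCs downstream of AP1 (CVL125 landscape 6), RGA and FLD (CVL39 landscape 6), VIP3 (CVL39 landscape 5), FLK (CVL125 landscape 1) and FCA (CVL125 landscape 5) and upstream of ELF5 (CVL125 landscape 1). That of AP1 lay 433 bp and that of RGA 885 bp from the gene, both CHH and outside any other gene. The DMC near FLD was the only CHG in or near the 50 genes.

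A further 45 genes of the same pathways, counted in the same way, had a body DMC in 16 cases in CVL39 (14.6 at the share of like length, with 26.2% of all genes) and 15 in CVL125 (14.1 at the share of like length, with 25% of all genes). A cytosine recurred in at least 2 landscapes in FPA, FIE, SPL10, CDF2 and LDL1 in CVL39 and in FPA, FIP1, VRN5, FIE and LDL2 in CVL125. These are 5 of 45 genes in each line, beside 8.11% of all genes in CVL39 and 7.58% in CVL125. FIE, the WD repeat subunit of the complex to which CLF and VRN2 belong, recurred in both lines at different CG sites, and VRN5 is a partner of VIN3. In LDL2, a relative of FLD, the coding CG at 4479722 of chromosome 3 was listed in CVL39 landscape 6 and in CVL125 landscapes 1, 5 and 6. FPA, an RNA-binding protein of the autonomous pathway, had 1, 1 and 3 DMCs in CVL39 landscapes 1, 5 and 6, against 4, 7 and 1 in CVL125. Within 1 kb of FPA lay a further 8, 9 and 2 in CVL125, mainly in the neighbouring gene AT2G43400, and 0 in each CVL39 list. FPA lies on chromosome 2, a stretch of which was heterozygous for the parental alleles in CVL125. Whether that stretch takes in FPA was not tested. The coding CG at 18028309 of chromosome 2, in FPA, was listed in CVL39 landscapes 1 and 6 and in CVL125 landscape 5.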

How the data were processed

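The authors sequenced bisulfite-converted DNA on the SOLiD platform at low coverage and aligned the reads with SOCS to Ler and Cvi sequences built from TAIR10. For each DMC the deposited lists give its chromosome, its strand, where it lies and an unadjusted p-value. The test behind the p-values and its coverage minimum are not given in the sources used here, so the depth of each cytosine is unknown. A stretch of chromosome 2 was heterozygous for the parental alleles in CVL125. Counts of genes on chromosome 2, such as CLF and FPA, were not sorted by whether they lie in it.

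Positions were read as counted from 0, which put over 99% of nuclear positions on a cytosine of the stated strand (the others were left out), and are printed counted from 1. Gene bodies and flanks of 1 kb were taken from the RefSeq annotation of TAIR10.1, in which all 50 genes and 43 of the 45 further genes had their symbols. Genes, lists and tests were chosen with earlier results of these data known. Recurring, most listed and key genes were named by rule, and zeros of all members were given. Lines were compared over 3 populations each by two-sided exact permutation tests (SciPy 1.17.1), with Benjamini-Hochberg adjustment where an adjusted p is given. Labels do not state that pools were independent beyond their landscape, so p-values measure the spread between these pools. Other genes were weighted by 10 length classes, which is a description. The counting and weighting were tested on simulated data. Alternatives were a p-value limit of 0.005, no CT runs, CG only, other flanks and classes, chromosome arms, positions within 50 bp, each landscape left out, and pairing by landscape.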

Additional observations from a re-analysis of the deposited data

How the results depend on the processing

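With 3 populations per line no setting could give a p below 0.1, so no call could change. The settings can be compared only by the size and direction of the differences. The CVL39 minus CVL125 difference in genes with a DMC (0.333) turned to -1.67 at a p-value limit of 0.005 (exact permutation p = 0.8) and ranged from -0.5 to 1 when each landscape was left out, with -0.5 without landscape 6. The difference in body DMCs (-4) kept its sign, from -7.5 to -1 without each landscape, and was -0.376 per 1000 listed DMCs (exact permutation p = 0.2), an alternative chosen after seeing the data. With the replicate block that pairs populations by landscape, p was 1, 0.5 and 1 for genes, body DMCs and flanking DMCs (exact sign permutation, smallest possible p 0.25). The share of the flowering time genes over that of genes of like length averaged 0.848 ± 0.231 for CVL39 lists and 0.915 ± 0.142 for CVL125 lists (SD over 3 of each). In CVL125 it was 1.11 at the p-value limit of 0.005 and 1.08 with classes of CG number in place of length, and classes of CG number gave 1.01 in CVL39. Genes with a cytosine in at least 2 landscapes numbered 1 in CVL39 (against 5) and 4 in CVL125 (against 10) at the p-value limit of 0.005. Without each landscape they numbered 1 to 3 in CVL39, with 1 without landscape 5, and 3 to 7 in CVL125, with 3 without landscape 5. Fewer lists leave fewer chances to recur. No share of other genes is given at these settings, so the falls cannot be set against a background. Depth limits every count, since neither the cytosines that were tested nor their reads are known.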
